A study of Mus musculus with 12 samples.

Results

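The anterior part of the palate was compared between tamoxifen-treated and control mouse embryos across all genes. The comparison used 6 of the 12 RNA-seq libraries of the series, 3 tamoxifen and 3 control, chosen by the tissue and treatment in their labels. The other 6 libraries came from the posterior palate of the same kinds of embryo. Every sample was C57BL/6 palatal shelf tissue at stage E13.5, without a transgene or mutant allele in the labels. The labels give no dose, day, route or vehicle for tamoxifen and do not describe how controls were handled. They give 3 per group and do not say whether these were separate embryos, litters or pools, so the p-values measure only the spread between these samples, which may be technical. The series' title concerns cleft palate after tamoxifen.

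The secondary palate forms from shelves of neural crest-derived mesenchyme covered by epithelium. The shelves grow beside the tongue, lift above it and fuse in the midline. Sonic hedgehog from the epithelium, BMP, FGF and Wnt signals pattern the mesenchyme, and the anterior and posterior parts express different transcription factors. Tamoxifen is a selective oestrogen receptor modulator that also binds sterol-processing enzymes and the microsomal antioestrogen binding site.

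The deposited files held 1 raw count for each of 24391 gene symbols. Total counts were 39384932 to 44643692 in 5 anterior libraries and 73017438 in tamoxifen replicate 1. Shox2 and Msx1, transcription factor genes of the anterior palate, were at least 304.5 and 177 CPM (counts scaled to library size) in all 6 anterior libraries and at most 22.9 and 26.6 CPM in the posterior ones. Meox2 and Tbx22, which mark the posterior palate, were at most 9.77 and 8.51 CPM in the anterior libraries and at least 121 and 22.8 CPM in the posterior ones. The mesenchymal genes Prrx1, Osr2, Pdgfra and Twist1 were at 162 CPM or more in every anterior library. Because the tissue is mixed, fewer cells of a type and less RNA per cell cannot be told apart.

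Genes higher and lower with tamoxifen were similarly many, and the direction ran with transcript length and base composition. Of 15958 genes tested with edgeR's quasi-likelihood test, 49.7% passed a Benjamini-Hochberg adjusted p of 0.05 and are referred to as called: 4089 were higher with tamoxifen (25.6%) and 3835 lower (24%). In the decile of shortest transcripts, with a median of 977 bases, the median log2 fold change was -0.40, 1.64% of genes were called higher and 47.5% lower. In the longest decile, with a median of 8293 bases, the median was 0.59, 71.0% were higher and 3.35% lower. Across genes, the Spearman correlation of the log2 fold change was 0.54 with transcript length and -0.52 with GC content, as a description of genes that are not independent replicates.

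Relative to the mean of the 6 libraries each library showed a gradient, and 2 libraries were steeper than their group. That mean holds both groups, so a slope in 1 group gives an opposite slope in the other. In the longest decile the median log2 deviation from a gene's mean over the 6 libraries was -0.20, -0.23 and -0.45 in control replicates 1, 2 and 3, and 0.28, 0.33 and 0.26 in tamoxifen replicates 1, 2 and 3. Control 3 had the lowest level of long transcripts and the highest of short ones, at 0.32 in the shortest decile. For GC content tamoxifen 2 stood apart, at 0.36 in the decile with the lowest GC against 0.12 and 0.11 in the other tamoxifen libraries. The groups overlapped in none of the length deciles but the sixth, where deviations were near 0. The treatment and a technical gradient in length and GC cannot be told apart in this design, since both separate the groups.

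**Figure D1:**
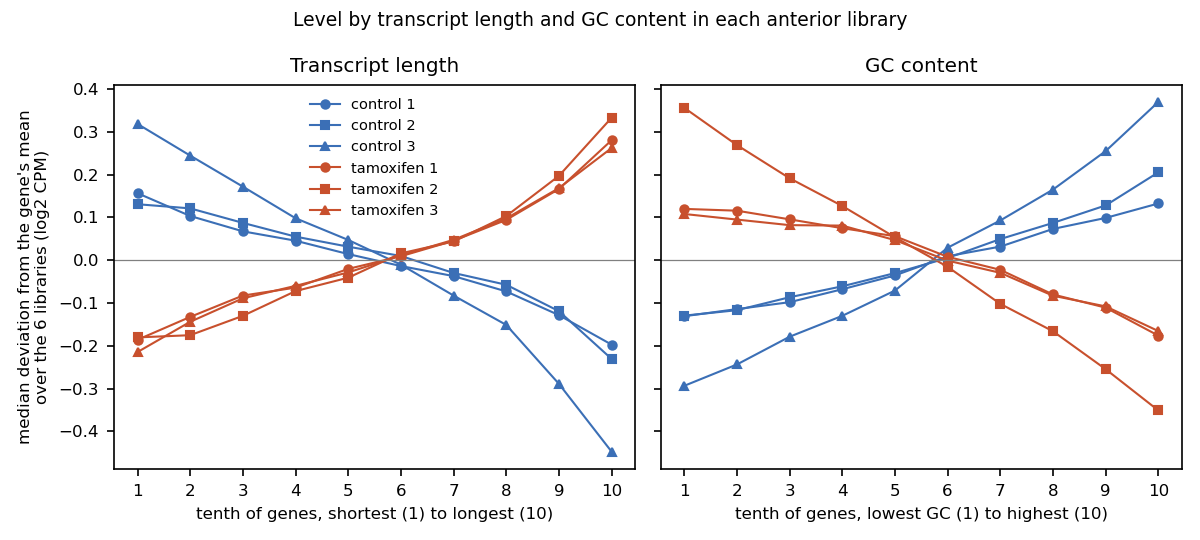
Median deviation of log2 CPM from each gene's mean over the 6 anterior libraries (vertical axis), for deciles of genes ordered by transcript length (left) and GC content (right); lines are single libraries, blue for control and red for tamoxifen. The lines of the groups cross near the middle deciles, and control 3 and tamoxifen 2 are the steepest, reaching -0.45 in the longest and 0.36 in the lowest-GC decile.

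A second fit therefore removed from every library a smooth surface of log2 CPM on the longest transcript's length and GC content. It called 32.7% of 15840 genes, 2551 higher (16.1%) and 2625 lower (16.6%). Called in the same direction in both fits were 1870 genes higher (11.8%) and 1527 lower (9.64%). In opposite directions were 333 genes (2.1%). Every anterior list count of these 2 fits is to be read against the shares over all genes. They were 25.6% higher and 24% lower in the counts as deposited, and 16.1% and 16.6% with the trend removed. List counts without control 3 are of the fit with the trend removed. They are to be read against 11.7% higher and 12.5% lower over all genes in that fit without control 3. In what follows, "rose" and "fell" are used for genes called in the same direction in both fits. Values of a single fit are named as such, "adjusted p" is that of edgeR's test, and log2 values "with the trend removed" come from the second fit.

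The 3 and 3 values did not overlap for 56.5% of genes in CPM and 43.2% with the trend removed. The ranking took genes called in the same direction in both fits, without overlap on either scale, that reached 5 CPM as the mean of 1 group. With clone symbols such as Rik left out, these comprised 1584 rises and 1179 falls. The 12 largest rises by the trend-removed change included receptors, a ubiquitin ligase adaptor and transcriptional regulators. Gprin3, a G protein-binding protein gene, was at 0.916, 0.871 and 0.515 CPM in controls and 5.62, 5.86 and 7.08 CPM in tamoxifen libraries. Its log2 fold change was 3.01 ± 0.26 (SE, n = 3 against 3, adjusted p = 1.23e-06 in edgeR) and 2.31 with the trend removed. Klhl11, a substrate adaptor of a ubiquitin ligase, was at 8.07, 7.01 and 4.12 CPM in controls and 27.4, 34.2 and 25.1 CPM with tamoxifen. It rose by 2.17 ± 0.20 (adjusted p = 2.32e-06 in edgeR) and by 2.26 with the trend removed. In both genes control 3 was the lowest library.

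Zbed6, a transcription factor gene derived from a DNA transposon and lying within an intron of Zc3h11a, was at 25.4, 26.1 and 10.6 CPM in controls and 109.5, 124 and 101 CPM with tamoxifen. Its reads cannot be separated from unspliced RNA of the gene around it without the strand and counting rules. Itgb8, the integrin beta subunit that activates latent TGF-beta, was at 0.991, 1.40 and 0.866 CPM in controls and 5.54, 5.06 and 5.17 CPM with tamoxifen. It rose by 2.27 ± 0.22 on the log2 scale (adjusted p = 1.87e-06 in edgeR) and by 1.55 with the trend removed. Sstr4, a somatostatin receptor gene with a short transcript of 1424 bases, was at 7.43, 6.29 and 3.98 CPM in controls and 11.96, 10.2 and 13.46 CPM with tamoxifen. It is the one of the 12 whose change was larger after removal of the trend, 1.60 against 1.01, apart from Klhl11. The others were Uprt, Fam83b, Cep85l, Lnpep, Aff2, Zfp369 and Ptpn4, with trend-removed changes of 1.61 (Ptpn4, a protein tyrosine phosphatase) to 1.99 (Uprt, a uracil phosphoribosyltransferase homologue).

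Control 3 was the lowest control for all 12 rises. Without it the 12 log2 fold changes lay between 0.80 and 2.79 in place of 1.01 to 3.01, and between 1.32 and 2.16 with the trend removed. All 12 were called in both fits when any 1 of the 6 anterior libraries was left out. With length and GC taken from a gene's RefSeq-linked transcript in place of its longest one they were between 1.51 and 2.27. For most of the 12, Gprin3 and Itgb8 among them, both transcripts had the same length, so this alternative could hardly change their values.

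The 12 largest falls by the trend-removed change were headed by the long non-coding transcripts Meg3 and Kcnq1ot1. Meg3, a maternally expressed non-coding RNA of the imprinted Dlk1-Dio3 cluster, was at 543, 442 and 415 CPM in controls and 209, 205 and 202 CPM with tamoxifen. It fell, with a log2 fold change of -1.18 ± 0.10 (adjusted p = 1.23e-06 in edgeR), with -1.83 after removal of the trend and -0.88 with the RefSeq-linked length. Kcnq1ot1, the antisense RNA of the imprinted Kcnq1 domain, was at 61.1, 56.8 and 44.5 CPM in controls and 20.9, 23.7 and 14.6 CPM with tamoxifen. Its log2 fold change was -1.45 ± 0.17 (adjusted p = 1.7e-05 in edgeR) and -1.80 with the trend removed. As the strand setting of the counting is not known, its reads cannot be told apart from unspliced Kcnq1 RNA.

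Tfap2b, an AP-2 transcription factor of the craniofacial neural crest, was at 86.3, 90.7 and 87.4 CPM in controls and 39.6, 45.1 and 63.4 CPM with tamoxifen. It fell, by a log2 fold change of -0.84 ± 0.15 (adjusted p = 0.00028 in edgeR) and -1.32 with the trend removed, with tamoxifen 3 nearest to the controls. Maf, a basic leucine zipper factor, was at 117, 126 and 141 CPM in controls and 70.7, 69.4 and 84.6 CPM with tamoxifen, a change of -0.77 ± 0.14 and -1.27 with the trend removed. Spaca6, known as a sperm gene needed for fusion with the egg, was at 26.4, 24.2 and 18.4 CPM in controls and 8.62, 9.94 and 8.12 CPM with tamoxifen. Its change was -1.37 ± 0.17 and -1.64 with the trend removed. The groups did not overlap for these genes, which was a condition for entering the ranking.

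Cbln1, Tgfbr3l, Neat1, Mzf1, Hnrnpa1, Chst8 and Bcl7c made up the remainder. Hnrnpa1 has many processed copies in the genome and was at only 23.1 CPM on average in controls, so its value is uncertain. Bcl7c changed by -1.20 with the longest transcript of 6235 bases, but by 0.01 (adjusted p = 0.969 in edgeR) with the RefSeq-linked one, which ends the call. The other 11 falls were called with either length, but most were smaller with the RefSeq-linked one. Tfap2b, Spaca6, Tgfbr3l and Neat1 were then at -0.86, -1.12, -0.94 and -0.67. Only Kcnq1ot1, Maf and Cbln1 were larger, at -2.19, -1.34 and -1.52. All 12 were called in both fits when any 1 anterior library was left out, and without control 3 the trend-removed changes ranged from -1.80 to -0.94.

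**Figure D2:**
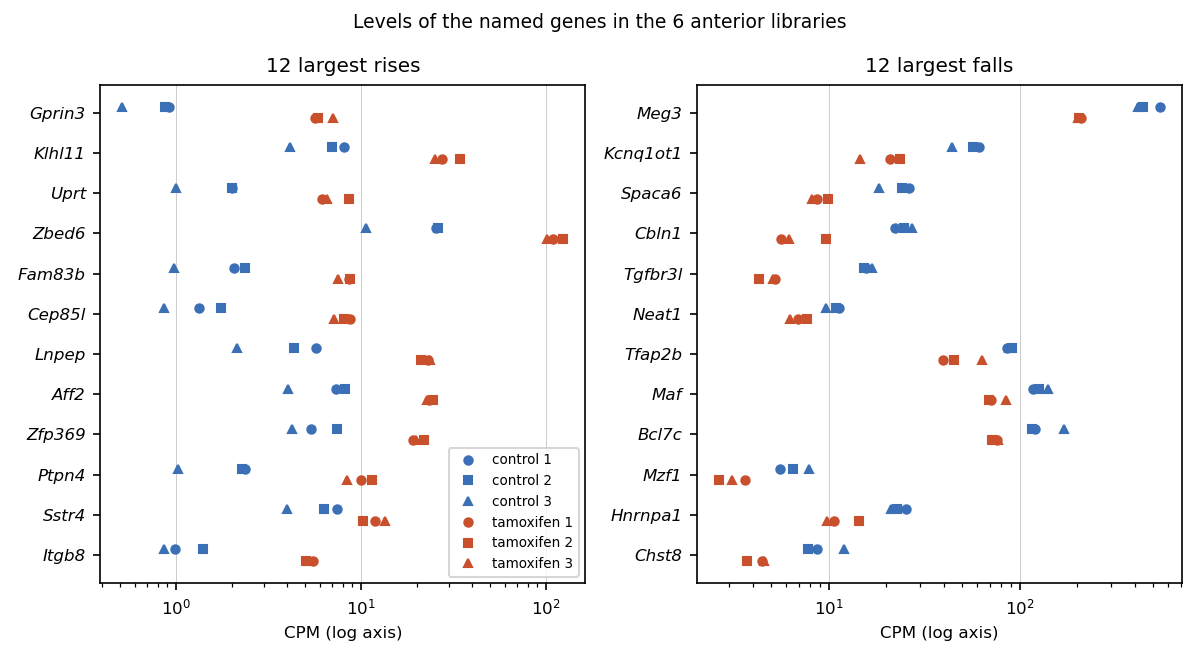
Levels in CPM (horizontal log axis) of the 12 largest rises (left) and 12 largest falls (right) in the 3 control (blue) and 3 tamoxifen (red) anterior libraries, each symbol 1 library. No red symbol lies among the blue ones for any gene, which was a condition of the selection. Gprin3 is at 0.515 to 0.916 CPM in controls and 5.62 to 7.08 CPM with tamoxifen.

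Genes of cholesterol synthesis and uptake were mostly higher with tamoxifen. Sterol synthesis runs from acetyl-CoA through mevalonate, squalene and lanosterol to cholesterol. It is switched on by the transcription factor SREBP2 when sterols in the endoplasmic reticulum are low. Of 27 members tested, 15 were called higher and 4 lower in the counts as deposited, with a median log2 fold change of 0.34 against -0.02 over all genes. After removal of the trend 18 were higher and 0 lower, with a median of 0.37 against 0.01 over all genes, of which 16.1% were called higher. With the RefSeq-linked length, where 13.4% of all genes were called higher and 15.2% lower, the counts were 19 and 2, and 13 members were higher in all 3 fits. Without control 3 the trend-removed counts were 17 and 0. In CPM, 16 members were higher and 4 lower in every tamoxifen library than in every control, the share without overlap over all genes being the 56.5% given above.

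The enzymes are given in the order of the pathway. Idi1, the isopentenyl diphosphate isomerase, was at 13.9, 16.4 and 14.5 CPM in controls and 24.5, 29.3 and 27.2 CPM with tamoxifen. It rose by 0.85 ± 0.12 on the log2 scale (adjusted p = 3.39e-05 in edgeR), with 0.67 after removal of the trend. Sqle, the squalene epoxidase, was at 125, 131 and 126 CPM in controls and 194, 189 and 185 CPM with tamoxifen. It rose by 0.57 ± 0.08 and 0.35 with the trend removed.

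Of the steps after lanosterol, Cyp51, Msmo1, Nsdhl, Hsd17b7 and Sc5d rose. Cyp51, the lanosterol demethylase, was at 108, 101 and 105 CPM in controls and 157, 160.3 and 153 CPM with tamoxifen, and rose by 0.59 ± 0.09 and 0.37 with the trend removed. Msmo1, Nsdhl and Hsd17b7, which remove the methyl groups of the sterol, had trend-removed changes of 0.47, 0.61 and 0.47. Sc5d, the lathosterol desaturase, was at 18.2, 18.9 and 15.3 CPM in controls and 31.8, 29.8 and 29.1 CPM with tamoxifen, a rise of 0.79 ± 0.11 and 0.37 with the trend removed. Dhcr7, a reductase of the last steps, was called only with the trend removed, at 0.39 against 0.20 before. Ebp, the sterol isomerase that is part of the microsomal antioestrogen binding site, was at 12.7, 13.1 and 15.5 CPM in controls and 9.69, 9.78 and 11.6 CPM with tamoxifen. Its log2 fold change was -0.41 ± 0.12 (adjusted p = 0.0069 in edgeR) before and -0.22 (adjusted p = 0.108) after removal of the trend.

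Regulators in the list were split: Srebf2, Insig1 and Mylip rose, while Scap and Insig2 were not called with the trend removed. Srebf2, which encodes SREBP2, was at 329, 359.9 and 358 CPM in controls and 431, 385 and 404 CPM with tamoxifen, a rise of 0.22 ± 0.07 (adjusted p = 0.0178 in edgeR) and 0.31 with the trend removed. Insig1, the sterol sensor that retains SREBP2 in the endoplasmic reticulum, was at 54.1, 63.3 and 65.8 CPM in controls and 90.9, 81.9 and 89.9 CPM with tamoxifen, and rose by 0.52 ± 0.10 and 0.52 with the trend removed. Mylip, a ubiquitin ligase that limits lipoprotein uptake, rose by 0.47 ± 0.07 and 0.49 with the trend removed. Fdft1, the squalene synthase, and Mvd, of the mevalonate branch, were at 0.30 and 0.38 with the trend removed, against 0.26 and -0.16 before. With the RefSeq-linked length Fdft1 was not called (adjusted p = 0.212 in edgeR). The largest value of the list was that of Stard4, a cholesterol carrier, at 0.80 with the trend removed.

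Members without a call with the trend removed were Scap, Insig2, Acat2, Mvk, Pmvk, Fdps, Lss, Tm7sf2 and Ebp. Of these, Scap, Mvk, Pmvk and Ebp were the 4 called lower in the counts as deposited, at -0.32, -0.48, -0.36 and -0.41. Lss, the lanosterol synthase, was at 0.60 before and 0.11 after removal of the trend, and at 0.38 with the RefSeq-linked length. With that length Scap and Ebp were the 2 called lower, at -0.15 and -0.32. Hmgcs1, the HMG-CoA synthase, was listed at 0 in all 12 libraries and was not tested. In the posterior palate, fitted in the same way, 2 of 27 members were called higher and 0 lower with the trend removed, near the 7.73% of all genes called higher there, with a median of 0.11. The difference between the palate parts passed the threshold for no gene of the list.

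**Figure D3:**
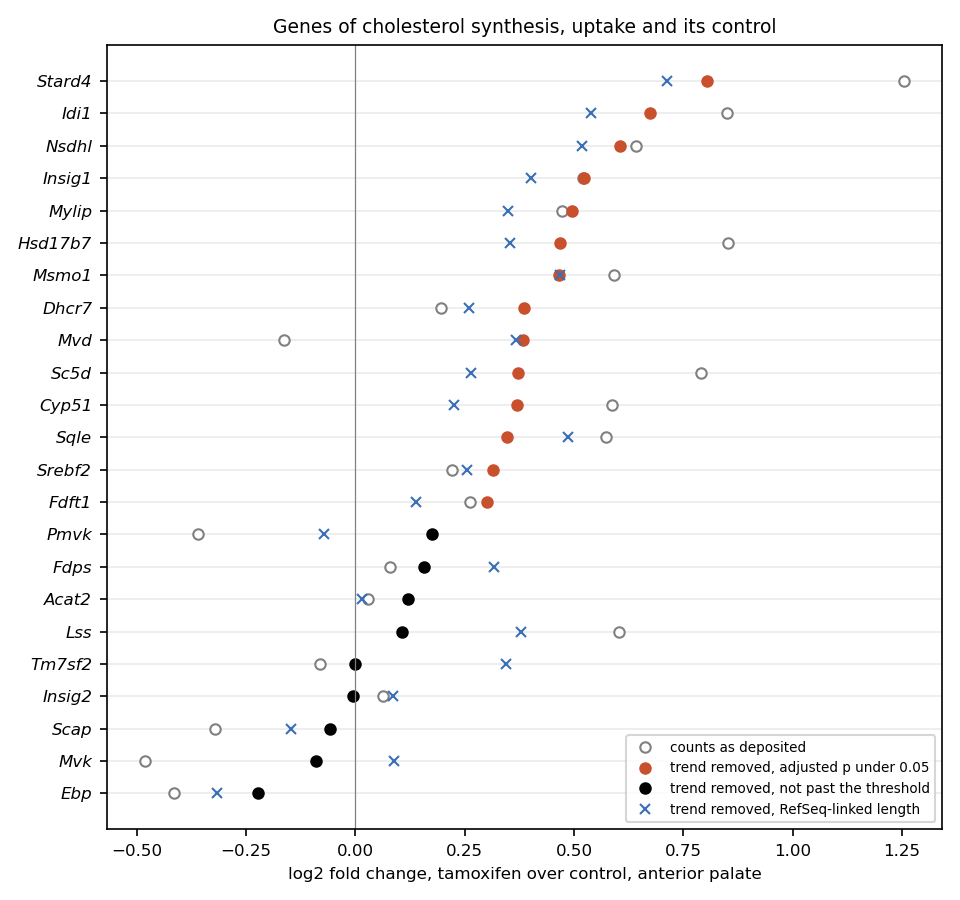
Log2 fold change (horizontal axis) of 23 of the 27 tested genes of cholesterol synthesis and uptake in the anterior palate, in the counts as deposited (open circles), with the length and GC trend removed (filled, red where the adjusted p was under 0.05) and with RefSeq-linked lengths (crosses). The 14 red points lie between 0.30 and 0.80, and Ebp is the lowest at -0.22 in the fit with the trend removed.

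Promoter windows of the list were examined because its members moved together. RefSeq windows of the mouse build GRCm38.p6, taken as the 250 bases before the start site, matched 20 of the 28 listed genes. The letters CCAAT, the box bound by the factor NF-Y, occurred on either strand in the windows of 18 of these 20 genes. They were in the windows of 11 of 11 members called higher with the trend removed, of 6 of 8 tested members without such a call, and of 39.5% of genes tested. Shown are 6 stretches around the match nearest the start site, from regulators, enzymes and an uptake gene, 5′ to 3′ on the gene's strand, with the box in capitals (ATTGG where it lies on the opposite strand).
Srebf2: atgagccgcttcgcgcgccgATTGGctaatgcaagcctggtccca
Insig1: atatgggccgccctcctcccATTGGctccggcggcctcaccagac
Idi1: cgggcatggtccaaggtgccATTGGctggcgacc
Cyp51: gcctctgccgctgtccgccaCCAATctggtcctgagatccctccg
Sc5d: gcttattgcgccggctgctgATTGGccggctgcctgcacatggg
Mylip: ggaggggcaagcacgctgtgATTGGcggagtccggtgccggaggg

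These stretches lie at chr15:82147114-82147158 (plus strand) for Srebf2, chr5:28071176-28071220 (plus strand) for Insig1, chr13:8885572-8885605 (plus strand) for Idi1, chr5:4104702-4104746 (minus strand) for Cyp51, chr9:42264301-42264344 (minus strand) for Sc5d and chr13:45389655-45389699 (plus strand) for Mylip, in GRCm38.p6. The strict sterol regulatory letters TCACNCCAC were in the windows of 1 of the same 20 genes, Hmgcs1, of none of the 19 tested members with a window, and of 1.3% of genes tested. Of the other motifs searched on both strands, TTGCATCA, a C/EBP-ATF site, was in the windows of 5 of 25 integrated stress response genes and 0.673% of genes tested. TNGCGTG, bound by the aryl hydrocarbon receptor, was in those of 1 of 19 genes of that receptor's list and 7.37% of genes tested. The consensus oestrogen response element was in none of 18 oestrogen response genes and 0.00842% of genes tested. A match of letters is a description and not a bound site.

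Fatty acid genes moved less uniformly. Of 23 tested, 7 were higher and 2 lower with the trend removed (16.1% and 16.6% over all genes), with a median of 0.03. Acly, which makes cytosolic acetyl-CoA, was at 291, 320.4 and 314 CPM in controls and 448, 415 and 441 CPM with tamoxifen, a rise of 0.49 ± 0.07 and 0.43 with the trend removed. The fatty acid desaturase gene Fads2 and the acyltransferase gene Gpam rose by 0.49 and 0.62 with the trend removed. Of 13 genes of liver X receptors and sterol efflux, 3 were higher and 0 lower.

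Long non-coding transcripts were called lower more often than higher. Of 601 tested, 36 were higher and 117 lower in the counts as deposited, and after removal 35 were higher (5.82%) and 89 lower (14.8%), against 16.6% and 16.8% of 15003 protein-coding genes. In a list of 21 nuclear and imprinted non-coding RNAs and snoRNA host transcripts, 2 were higher and 11 lower in the counts as deposited. With the trend removed 1 was higher and 15 lower, with a median of -0.62. With RefSeq-linked lengths the counts were 1 and 13 of 20, and without control 3 they were 1 and 14.

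Of 8 host transcripts of small nucleolar RNAs, which carry those RNAs in their introns, 6 fell. Snhg1 was at 62.3, 65.4 and 61.9 CPM in controls and 36.1, 35.3 and 34.96 CPM with tamoxifen, and fell, with a log2 fold change of -0.83 ± 0.08 (adjusted p = 1.43e-06 in edgeR), with -0.99 after removal of the trend. Gas5, a host transcript known for its rise in growth arrest, was at 231, 209.7 and 219 CPM in controls and 131, 169 and 139.8 CPM with tamoxifen, a log2 fold change of -0.58 ± 0.09 and -0.72 with the trend removed. Snhg5, Snhg6, Snhg8 and Snhg12, with transcripts of at most 1538 bases, fell (-0.48, -0.42, -0.35 and -0.56 with the trend removed), while Snhg3 was at -0.17 (adjusted p = 0.341 in edgeR) and Snhg11 at -1.44 (adjusted p = 0.0635). None of the 6 hosts that fell had overlapping groups in CPM, as was the case for 56.5% of all genes.

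Of the nuclear RNAs, Neat1, the scaffold of paraspeckles, was at 11.3, 10.9 and 9.72 CPM in controls and 6.87, 7.66 and 6.23 CPM with tamoxifen. Its change was -0.62 ± 0.16 before and -1.33 after removal of the trend, but -0.67 with the RefSeq-linked length. Malat1, a nuclear speckle RNA, was at 509, 455 and 334 CPM in controls and 268, 406 and 200.4 CPM with tamoxifen, so that the groups overlapped, and was called only with the trend removed (-1.22, adjusted p = 0.00267 in edgeR, against -0.57 and 0.0989 before). Mirg, of the same imprinted cluster as Meg3, was at 19.9, 18.8 and 18.3 CPM in controls and 9.48, 9.85 and 10.7 CPM with tamoxifen and fell, by a log2 fold change of -0.93 ± 0.17 and -0.90 with the trend removed. Rian, the third of that cluster, was at -0.12 before and -0.83 after removal. H19, the most abundant non-coding RNA of the set, was at 5404, 4929 and 5843 CPM in controls and 5080, 5259 and 5001 CPM with tamoxifen, a change of -0.08 before (adjusted p = 0.447) and 0.30 after removal (0.00224). Tug1 was 0.49 before and -0.16 after removal, called in opposite directions.

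**Figure D4:**
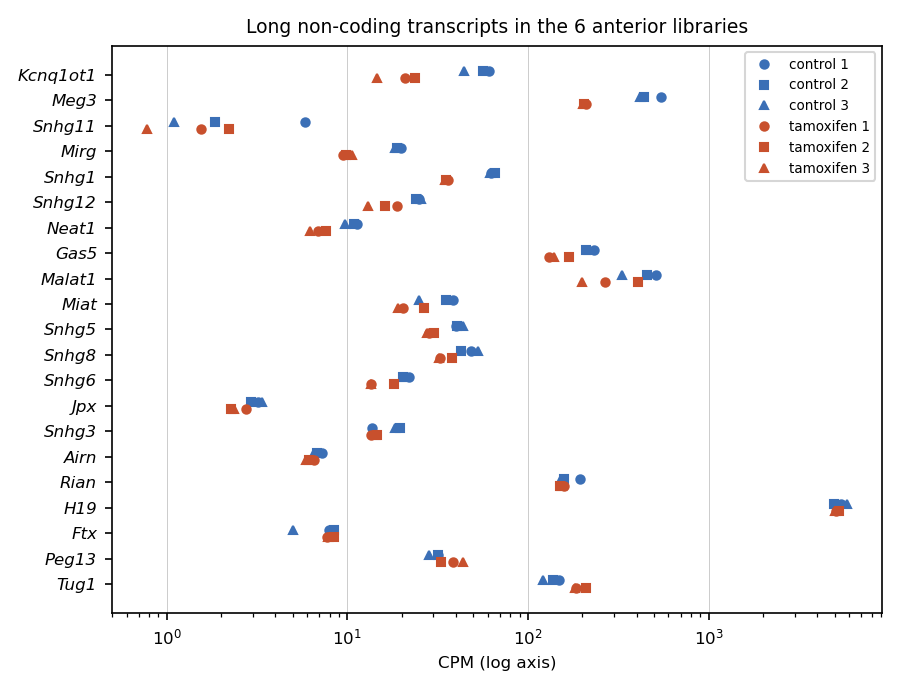
Levels in CPM (horizontal log axis) of 21 long non-coding transcripts in the 3 control (blue) and 3 tamoxifen (red) anterior libraries, each symbol 1 library, ordered by the log2 fold change in the counts as deposited. All red symbols lie below all blue ones for 12 transcripts and above them for 2. Over all genes tested, the groups did not overlap for 56.5%.

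Imprinted protein-coding genes did not share this direction. Of 25 tested, 7 were higher and 5 lower with the trend removed, against 16.1% and 16.6% of all genes. Peg3, a paternally expressed zinc finger gene, was at 234, 220.5 and 134 CPM in controls and 648, 662 and 655 CPM with tamoxifen. It rose by 1.74 ± 0.16 (adjusted p = 2.84e-06 in edgeR) and 1.12 with the trend removed, control 3 being the lowest library. Its neighbour Zim1 was at 7.85, 7.33 and 4.87 CPM in controls and 21.3, 21.2 and 21.3 CPM with tamoxifen and rose by 1.67 ± 0.14 and 0.9989 with the trend removed. Mest, a paternally expressed gene of mesoderm, was at 469, 487 and 447 CPM in controls and 768, 653 and 808 CPM with tamoxifen, a rise of 0.67 ± 0.08 and 0.64 with the trend removed.

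Transcription factors of the palatal mesenchyme were called in both directions. Of 32 tested, 7 were higher and 14 lower in the counts as deposited, and 3 and 4 with the trend removed, shares below the 16.1% and 16.6% of all genes. Foxc2, a forkhead factor of head mesenchyme, was at 8.45, 7.57 and 8.36 CPM in controls and 3.17, 3.22 and 3.26 CPM with tamoxifen, and fell, by a log2 fold change of -1.34 ± 0.13 (adjusted p = 1.73e-06 in edgeR) and -0.78 with the trend removed. Its paralogue Foxc1 was at 59.2, 56.8 and 67.96 CPM in controls and 46.7, 42.9 and 43.99 CPM with tamoxifen, and fell, by a log2 fold change of -0.46 ± 0.12 and -0.53 with the trend removed. Of 12 genes known for the anterior palate, 2 were higher and 2 lower with the trend removed, near those shares, and 2 and 1 when control 3 was also left out. Among them Foxf1, a hedgehog target, fell, by a log2 fold change of -0.49 ± 0.08 and -0.19. Shox2, the anterior marker, was at 304, 359.7 and 331 CPM in controls and 404, 579 and 376 CPM with tamoxifen, 0.45 ± 0.19 (adjusted p = 0.0761), a difference that did not pass the threshold. Msx1, the other anterior marker, was at 399, 464 and 615 CPM in controls and 229, 177 and 249 CPM with tamoxifen, without overlap. It was called lower in the counts as deposited (-1.18 ± 0.32, adjusted p = 0.0136 in edgeR) but not with the trend removed (-0.67, adjusted p = 0.113).

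Wnt receptors and secreted modulators were more often higher than lower. Of 36 tested, 13 were higher and 1 lower with the trend removed (16.1% and 16.6% over all genes), with a median of 0.17. Ror1, a receptor tyrosine kinase for Wnt5a, was at 30.8, 28.7 and 20.2 CPM in controls and 73.3, 71.9 and 82.98 CPM with tamoxifen, and rose by 1.52 ± 0.13 (adjusted p = 1.12e-06 in edgeR) and 1.08 with the trend removed. The Frizzled receptor gene Fzd1 was at 207, 228 and 204 CPM in controls and 309, 273 and 332 CPM with tamoxifen, a rise of 0.51 ± 0.10 and 0.65 with the trend removed, and Fzd7 rose by 0.41. Of 15 ligands, 3 were higher and 1 lower with the trend removed, and 2 and 0 with the RefSeq-linked length. Wnt5a, the ligand of Ror1, rose by 0.84 ± 0.07 and 0.28 with the trend removed. Wnt11 was at 28.6, 20.02 and 25.8 CPM in controls and 14.7, 15.6 and 16.3 CPM with tamoxifen and fell, by a log2 fold change of -0.68 ± 0.12 and -0.39 with the trend removed, but was at -0.11 (adjusted p = 0.563) with the RefSeq-linked length. Targets of canonical Wnt signalling had 3 members higher and 4 lower of 15: Axin2, its feedback gene, rose by 0.32 with the trend removed, and Bambi, also a BMP target, fell (-0.78). Without control 3 the target counts were 1 and 3. In planar cell polarity, 7 of 16 genes were higher and 5 lower, Dvl3 and Prickle2 rising by 0.61 and 0.40 and Scrib falling (-0.29), and with the RefSeq-linked length the polarity counts were 5 and 2.

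BMP and TGF-beta genes were called in both directions. Of 23 BMP ligands, receptors and antagonists, 7 were higher and 3 lower with the trend removed, against 16.1% and 16.6% of all genes. Bmp7 was at 76.2, 75.1 and 70.8 CPM in controls and 102, 83.2 and 83.4 CPM with tamoxifen, a rise of 0.28 ± 0.09 and 0.48 with the trend removed. Bmp1, the procollagen C-proteinase that also cleaves Chordin, was at 436, 443 and 438 CPM in controls and 303, 290.4 and 322 CPM with tamoxifen, and fell, by a log2 fold change of -0.53 ± 0.08 and -0.51 with the trend removed. Of 26 TGF-beta and activin pathway genes, 8 were higher and 6 lower with the trend removed. The largest fall was that of Tgfbr3l, at -1.70 ± 0.15, -1.36 with the trend removed and -0.94 with the RefSeq-linked length. The modulator Twsg1 and the shared mediator Smad4 rose by 0.33 and 0.36 with the trend removed. Of 12 direct BMP targets, 8 were called lower and 1 higher in the counts as deposited, but 2 and 2 with the trend removed, and 5 and 1 with the RefSeq-linked length.

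Hedgehog genes moved apart within the pathway. Ptch1, receptor and target, was at 175, 160.1 and 119 CPM in controls and 283, 279 and 303 CPM with tamoxifen, and rose by 0.93 ± 0.10 (adjusted p = 4.87e-06 in edgeR) and 0.29 with the trend removed. Gli1, the transcription factor that reports pathway activity, was at 262, 266 and 308 CPM in controls and 156, 159 and 178 CPM with tamoxifen, and fell, by a log2 fold change of -0.77 ± 0.10 (adjusted p = 2.49e-05) and -0.47 with the trend removed. Foxd1, a forkhead target, was at 91.8, 98.05 and 118 CPM in controls and 63.4, 41.99 and 65.1 CPM with tamoxifen and fell, by a log2 fold change of -0.85 ± 0.19 and -0.91 with the trend removed. These targets thus went in opposite directions in both fits. Of 20 members, 7 were higher and 4 lower with the trend removed, against 16.1% and 16.6% of all genes.

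Feedback genes of FGF and ERK signalling were called only higher in both fits. Of 15 tested, 9 were higher and 0 lower before, and 8 and 0 after removal of the trend, with a median of 0.29. With the RefSeq-linked length 7 were higher and 1 lower. Over all genes 25.6% were higher before and 16.1% after removal, and 13.4% with that length. Dusp4, a nuclear ERK phosphatase, was at 11.1, 14.1 and 14.8 CPM in controls and 21.6, 21.8 and 19.6 CPM with tamoxifen, a rise of 0.65 ± 0.12 and 1.01 with the trend removed. Flrt2, a membrane partner of FGF receptors, was at 71.6, 65.04 and 53.5 CPM in controls and 128, 146 and 119 CPM with tamoxifen, a rise of 1.04 ± 0.11 and 0.39 with the trend removed. FGF ligands and receptors themselves had 3 members higher and 2 lower of 27 with the trend removed, shares below those of all genes. Among them Fgfr2 rose by 0.33 in that fit. Without control 3 these counts were 1 and 0.

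Other growth signals were given by single genes. The PDGF ligand Pdgfc rose from 72.99 ± 5.12 to 103 ± 14.9 CPM (SD, n = 3 each), by 0.51 with the trend removed. Irs2, an adaptor of the insulin and IGF receptors, rose from 43.8 ± 5.04 to 75.9 ± 6.995 CPM, by 0.71 with the trend removed. In retinoic acid metabolism Cyp26b1, which degrades retinoic acid, rose by 0.42, and Dhrs3, which reduces retinaldehyde, fell (-0.42) with the trend removed. Of 18 genes of YAP and TAZ signalling, 8 were higher and 0 lower with the trend removed, against 16.1% and 16.6% of all genes. Lats2, the kinase that inhibits YAP, was at 50.6, 49.7 and 46.4 CPM in controls and 81.1, 81 and 78.4 CPM with tamoxifen and rose by 0.71 ± 0.07 and 0.54 with the trend removed. Of 19 oestrogen receptor and response genes, 6 were higher and 4 lower with the trend removed, against the same 16.1% and 16.6%. The coactivator gene Ncoa2 rose by 0.43 in that fit. Without control 3 the oestrogen counts were 4 and 2.

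Guidance receptors and ligands, which steer migrating neural crest cells and axons, included some of the larger rises. Epha3, an ephrin receptor, was at 94.8, 104 and 68.8 CPM in controls and 255, 298 and 218 CPM with tamoxifen. It rose by 1.53 ± 0.14 (adjusted p = 2.55e-06 in edgeR) and 0.99 with the trend removed. Unc5d, a netrin receptor, was at 30.99, 31.6 and 23.6 CPM in controls and 84.5, 94.5 and 74.6 CPM with tamoxifen, a rise of 1.56 ± 0.12 and 0.84 with the trend removed. The secreted semaphorin gene Sema3d was at 48.8, 53.5 and 34.9 CPM in controls and 124, 135 and 106 CPM with tamoxifen, a rise of 1.41 ± 0.14 and 0.80 with the trend removed. Sema6c, a transmembrane semaphorin, fell from 170.2, 208 and 258 CPM in controls to 109.6, 85.8 and 110.5 CPM with tamoxifen (-1.06 ± 0.17, and -0.85 with the trend removed). Robo1, a Slit receptor, rose by 0.55 with the trend removed. After removal of the trend, 13 of 31 semaphorins, plexins and neuropilins were higher and 3 lower. In that fit 9 of 21 Slit, Robo and netrin genes were higher and 3 lower, and 6 of 22 ephrins and Eph receptors were higher and 3 lower. Over all genes the shares were 16.1% higher and 16.6% lower.

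Matrix and adhesion genes showed a similar balance. Of 28 integrins, 11 were higher and 2 lower with the trend removed, against 16.1% and 16.6% of all genes. Itga6 and Itgav rose by 0.50 and 0.35 in that fit. Without control 3 the integrin counts were 7 and 3, as they were with the RefSeq-linked length. Of 29 hyaluronan and proteoglycan genes, 7 were higher and 0 lower: the glypican gene Gpc6 was at 221, 211 and 176 CPM in controls and 359, 418 and 348 CPM with tamoxifen, a rise of 0.89 ± 0.10 and 0.62 with the trend removed. Of 21 basement membrane genes, 5 were higher and 1 lower, Col4a5 rising by 0.70 and Lamc1 by 0.36 with the trend removed. Col1a1, the main collagen of the mesenchyme and among the 5 most abundant transcripts, was at 3622, 3759 and 4101 CPM in controls and 3135, 1867 and 4253 CPM with tamoxifen, so that the groups overlapped (adjusted p = 0.439). Among proteases, the membrane-type metalloproteinase gene Mmp16 rose by 0.68 and Adam33 fell (-0.80) with the trend removed. Cdh11, the cadherin of mesenchyme, was at 543, 498 and 439 CPM in controls and 934, 833 and 929 CPM with tamoxifen, a rise of 0.87 ± 0.09 and 0.38 with the trend removed.

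Hypoxia and glycolysis genes were higher by small amounts. Of 30 tested, 10 were higher and 2 lower before, and 12 and 1 after removal of the trend, with a median of 0.23. Over all genes the shares were 25.6% and 24% before, and 16.1% and 16.6% after. Hif1a, the oxygen-regulated transcription factor, was at 99.4, 107 and 90.95 CPM in controls and 160.5, 196 and 165 CPM with tamoxifen, and rose by 0.81 ± 0.09 and 0.37 with the trend removed. The glycolytic kinase gene Pgk1 rose by 0.33 ± 0.09 and 0.46, and Egln3, a prolyl hydroxylase induced by HIF, by 0.34 ± 0.12 and 0.48. Of 24 genes of the unfolded protein response, 8 were higher and 1 lower, the sensor Ern1 and the degradation factor Sel1l rising by 0.53 and 0.34 with the trend removed. Of 30 integrated stress response genes, 4 were higher and 3 lower with the trend removed, shares below those of all genes. Ddit3, its pro-apoptotic factor, fell from 15.5, 14.2 and 14.4 CPM in controls to 9.36, 9.76 and 9.27 CPM (-0.63 ± 0.11, and -0.54 with the trend removed), but was at -0.17 (adjusted p = 0.296) with the RefSeq-linked length. Immediate early genes had 0 members higher and 1 lower of 24, Ier5 falling (-0.35) with the trend removed. Without control 3 the stress response counts were 3 and 1, and no immediate early gene was called. Of 23 p53 targets, 5 were higher and 2 lower with the trend removed, against 16.1% and 16.6% of all genes, and Plk2 rose by 0.43.

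Lists of short housekeeping transcripts had fewer members called lower after removal of the trend. In the counts as deposited 66 of 83 cytosolic ribosomal protein genes, 57 of 77 mitochondrial ribosomal protein genes and 64 of 79 nuclear-encoded oxidative phosphorylation genes were lower and none higher. With the trend removed the counts were 32 lower and 9 higher, 33 and 3, and 27 and 10, against 16.6% lower and 16.1% higher over all genes. With the RefSeq-linked length 28 and 4, 27 and 4, and 12 and 7 were lower and higher. Over all genes 15.2% were lower and 13.4% higher with that length, and the 12 of 79 oxidative phosphorylation genes were near this lower share. The medians of these lists moved from -0.38, -0.33 and -0.36 in the counts as deposited to -0.07, -0.12 and -0.04 with the longest transcript's trend removed. Mrps26, of the small mitochondrial subunit, was at 46.4, 47.7 and 53.8 CPM in controls and 33.4, 35.7 and 32.2 CPM with tamoxifen, a log2 fold change of -0.55 ± 0.08 and -0.72 with the trend removed. Ndufb7, of respiratory complex I, fell, by a log2 fold change of -0.61 ± 0.09 and -0.61 with the trend removed, but was at 0.12 (adjusted p = 0.152) with the RefSeq-linked length. The longest transcripts of Mrps26 and Ndufb7, at 4278 and 4435 bases, are unlike their lists, whose medians were 1849 and 1046 bases. Genes of the mitochondrial genome were not analysed here. Ribosomal protein genes have many processed copies, and their counts are uncertain to that extent.

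Chromatin regulators were the reverse case, with long transcripts. Of 32 tested, 25 were higher and 0 lower in the counts as deposited, and 11 and 5 with the trend removed. Over all genes the shares were 25.6% and 24%, and 16.1% and 16.6%. Ep300, a histone acetyltransferase, was at 89.9, 86.3 and 62.9 CPM in controls and 152, 153 and 153 CPM with tamoxifen, and rose by 0.94 ± 0.10 and 0.45 with the trend removed. Of 323 Zfp zinc finger genes tested, 139 were higher and 48 lower before, and 74 and 48 after removal, with 44 and 37 when control 3 was also left out. The 4 largest opposite calls were Exoc5, Pnpla8, Fign and Zfp846, all higher in the counts as deposited (0.43, 0.45, 0.39 and 0.38) and lower with the trend removed (-0.42, -0.41, -0.41 and -0.43), with longest transcripts of 9734 to 13510 bases. Of the 5 most abundant transcripts, Eef1a1, H19 and Col1a1 were not called and Eef2 and Actb were called lower (-0.32 and -0.26) in the counts as deposited, and H19 alone was called, higher, with the trend removed.

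**Figure D5:**
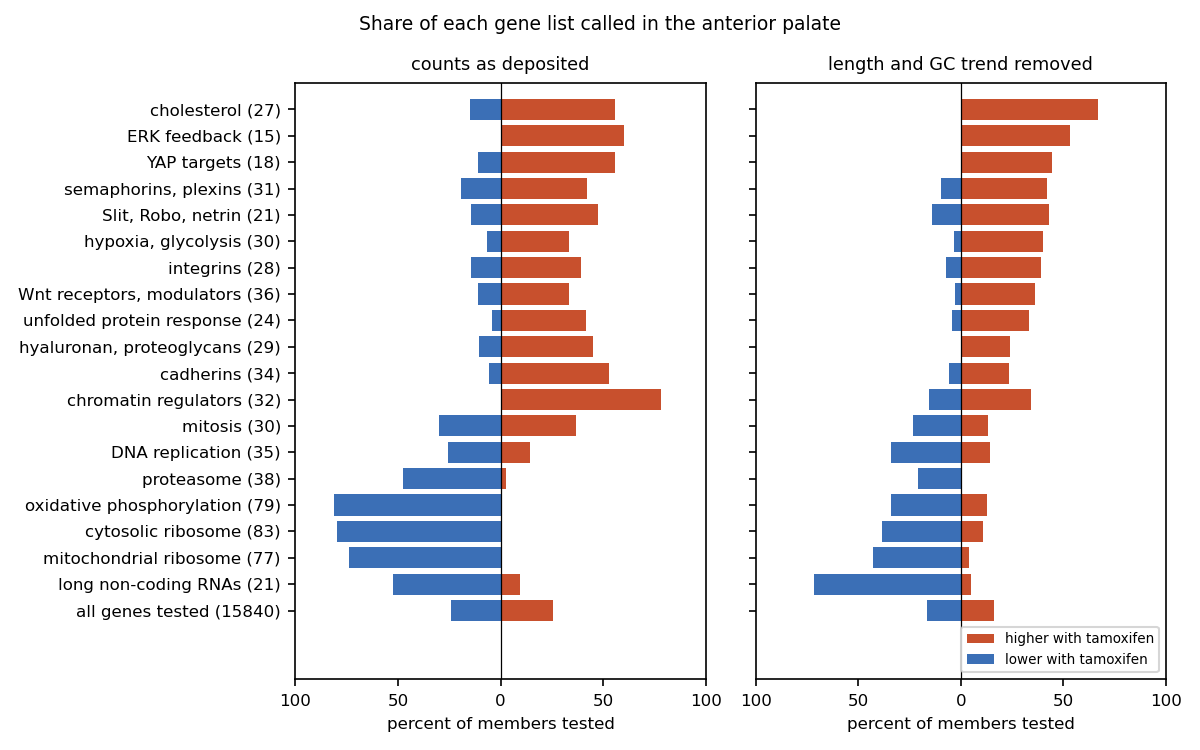
Share of tested members called higher (red, to the right) and lower (blue, to the left) with tamoxifen in the anterior palate, for 19 gene lists and all genes tested (15958 left, 15840 right), in the counts as deposited (left) and with the length and GC trend removed (right); the number of members is in brackets. Chromatin regulators go from 25 higher and 0 lower to 11 and 5, and the cholesterol list from 15 and 4 to 18 and 0.

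Cell cycle genes were mixed. Of 35 DNA replication genes, 5 were higher and 12 lower with the trend removed, and 1 and 15 with the RefSeq-linked length. Over all genes the shares were 16.1% and 16.6%, and 13.4% and 15.2% with that length. Rfc2, a clamp loader subunit, was at 128, 127 and 147 CPM in controls and 98.8, 92.8 and 106 CPM with tamoxifen, a log2 fold change of -0.43 ± 0.08 (adjusted p = 0.000199 in edgeR) and -0.67 with the trend removed. Of 30 mitotic genes, 11 were higher and 9 lower before, and 4 and 7 after removal of the trend. With the RefSeq-linked length the mitotic counts were 1 and 12. Without control 3, 2 replication genes were higher and 11 lower, and 2 mitotic genes were higher and 5 lower. Cdk1, the mitotic kinase, was at 106, 104 and 107 CPM in controls and 90.5, 96.1 and 89.5 CPM with tamoxifen and fell, by a log2 fold change of -0.20 ± 0.07 and -0.45 with the trend removed. Cdk6, a G1 kinase, was at 8.52, 7.96 and 6.49 CPM in controls and 22.5, 23.9 and 19.7 CPM with tamoxifen and rose by 1.52 ± 0.16 and 0.78 with the trend removed.

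Markers of cells other than mesenchyme overlapped between the groups in sum, with a few members called. The summed level of 28 epithelial markers was 2143 to 2681 CPM in controls and 2250 to 2693 CPM with tamoxifen, and 8 were higher and 0 lower with the trend removed. The 20 macrophage markers summed to 123 to 140.3 and 115 to 159 CPM, with 6 higher and 0 lower. For 12 Schwann cell markers the sums were 316 to 348 and 287 to 317 CPM, with 3 higher and 1 lower, Erbb3, the neuregulin receptor, rising by 0.93 ± 0.15 and 0.63. The 20 endothelial markers, with sums of 958 to 1084 and 895 to 1016 CPM, had 5 higher and 5 lower. Over all genes 16.1% were called higher and 16.6% lower with the trend removed. Without control 3, 4 epithelial markers were higher, and 3 endothelial markers were higher and 3 lower. With the RefSeq-linked length 4 epithelial markers were higher and 1 lower. The counts were then 5 and 0 for macrophages, 4 and 0 for Schwann cells and 2 and 4 for endothelium. Over all genes 13.4% were higher and 15.2% lower with that length.

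Skeletal muscle markers summed to 22.4 to 50.3 CPM in controls and 16.6 to 40.9 CPM with tamoxifen, with Myf6 at 0, and control 1 and tamoxifen 2 were the highest of their groups. Of 24 tested, 3 were lower with the trend removed, against 16.6% of all genes. Without control 3, 6 were lower, against 12.5% of all genes. Myh3, embryonic myosin, was at 8.45, 3.77 and 1.05 CPM in controls and 1.66, 0.56 and 0.554 CPM with tamoxifen, called at -2.11 ± 0.70 although the groups overlapped. Red cell genes summed to 868 to 1273 and 617 to 989 CPM, the 6 adult globin genes being listed at 0. Osteoblast markers, mostly collagen, summed to 5067 to 5490 CPM in controls and to 4661, 3022 and 5986 CPM in tamoxifen 1, 2 and 3. The part of these cells in any result was not tested.

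The tamoxifen effect in the anterior palate was set against that in the posterior palate in the same fit. For no gene did the 2 effects differ at an adjusted p under 0.05 in edgeR, with 2110 genes at an unadjusted p under 0.05 (13.2%) and a smallest adjusted p of 0.0809. With the trend removed there were 0 and 1701 genes (10.7%). limma-voom called 0 genes and DESeq2 179. In the posterior palate 2833 genes were called with the trend removed (17.9%). There 7.73% of genes were called higher and 10.2% lower. The 12 largest anterior rises were all called higher, with changes of 0.76 to 1.35 against 1.55 to 2.31 in the anterior part. Of the 12 largest falls, 7 were called lower in the posterior part. Both sets were chosen for large anterior changes, so smaller posterior values come with the choice and do not compare the parts. Tfap2b, Foxc2 and Cbln1 were singled out after their values were seen. With the trend removed they were at 0.03, -0.09 and -0.16 in the posterior part and -1.32, -0.78 and -1.43 in the anterior part. In the counts as deposited their posterior values were 0.34, -0.34 and -0.34, and Foxc2 was called lower there (adjusted p = 0.0249 in edgeR). Their difference between the parts did not pass the adjusted threshold in either fit.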

How the data were processed

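Gene expression was measured by RNA-seq in anterior and posterior palatal shelves of C57BL/6 embryos at embryonic day 13.5. The deposited files hold raw counts per gene symbol, whole numbers without normalization by the authors. The submitters' processing notes name HISAT2, StringTie and build mm9 without giving the role of each. Not given in the sources used here are versions, annotation, counting program and strand handling. Even values made up 57.9 to 60.1% of low counts in the anterior libraries, a share whose origin was not tested; halving all counts is among the alternatives. No pair of libraries agreed within sampling noise (smallest chi-square per degree of freedom 11.3).

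R 4.3.3 and edgeR 4.0.16 were used on all 12 libraries with 1 mean per group: filterByExpr, TMM scaling, robust quasi-likelihood fit (8 residual degrees of freedom), contrast tamoxifen minus control in the anterior part, Benjamini-Hochberg adjustment over all genes tested. CPM values are TMM-scaled. The second fit added an offset per library that removed additive natural splines (4 degrees of freedom each) of log2 CPM on transcript length and GC content, using genes whose average log2 CPM exceeded 1. Lengths came from the longest GENCODE transcript, on another build than the authors', matched by symbol (23348 directly and 653 by an older symbol of 24391). The steps were tested on simulated data. Single levels have no test of their own. Alternatives included DESeq2 1.42.0, limma-voom (limma 3.58.1), other scalings and filters, the anterior libraries alone, and leaving out each anterior library. Length and GC of the middle RefSeq-linked transcript were added after seeing the data, as were list counts without control 3.

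The members and lists were chosen with earlier results of these data known. Named genes are the 12 largest rises and 12 largest falls (clone symbols such as Rik left out), up to 3 members per list with the smallest trend-removed adjusted p among those called in both fits, the 4 largest opposite calls, the 5 most abundant transcripts and 4 region markers. Further members of the cholesterol and non-coding lists were named after their values were seen. Single values of a few members are not reported here, though they are part of the list counts.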

Additional observations from a re-analysis of the deposited data

How the results depend on the processing

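The number of anterior genes called fell from 7924 to 5176 (2551 higher) with the length and GC trend removed and to 4491 (2556 higher and 1935 lower) when a fold of at least 1.2 was tested. Leaving out 1 anterior library gave 6553 to 7495 genes (3518 to 3980 higher, 3035 to 3554 lower), and 3893 to 4952 (1881 to 2389 higher, 2012 to 2592 lower) with the trend removed, the lowest each time without control 3. The cholesterol list had 13 to 17 members higher in these fits and 17 to 18 with the trend removed, and the non-coding list 11 to 12 lower and 13 to 15. Genes whose effect differed between palate parts numbered 179 in DESeq2, 0 in limma-voom and 1 in the trend-removed fit with the replicate block. DESeq2, limma-voom and that blocked fit were planned for other results but not for this contrast. Leaving out 1 library gave 0 to 6 such genes (3 without tamoxifen 2, 6 without tamoxifen 3). Whether samples of different groups came from the same embryos is not known. Same-numbered deviations correlated above 0.1 in 7 of 18 pairs (-0.16 to 0.30). Without differently numbered pairs beside them these values cannot decide the question. The count headers carry other numbers than the titles, and pairing by those was not tested. As a block the replicate numbers of the titles gave 7800 calls, or 4990 (2456 higher, 2534 lower) with the trend removed.

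Direction turned for a few named genes, and the cause was not tested. With the trend removed the values were Exoc5 -0.42, Pnpla8 -0.41, Fign -0.41, Zfp846 -0.43, H19 0.30, Eef2 0.0422, Twist1 0.0497, Mvd 0.38, Pmvk 0.18 and Tug1 -0.16, and with the block added Exoc5 -0.42, Pnpla8 -0.40, Fign -0.41, Zfp846 -0.43, H19 0.30, Eef2 0.0434, Twist1 0.0481, Mvd 0.39, Pmvk 0.17 and Tug1 -0.16. Removing length alone gave Exoc5 -0.24, Pnpla8 -0.24, Fign -0.23, Zfp846 -0.28, Eef1a1 0.20, Col3a1 -0.0538, Maml1 -0.0685, Pdgfrb -0.26, Srebf2 -0.0477 and Pmvk 0.00986. Removing GC alone gave Fign -0.00874, Scrib 0.0634, Mvd 0.25 and Scap 0.0841. In the trend-removed fit, the median transcript length gave Exoc5 0.15, Pnpla8 0.14, Zfp846 0.11, Scrib 0.15 and Scap 0.23, and the RefSeq-linked length Bcl7c 0.0052, Cenpa 0.23, Atp5g1 0.0232, Ndufb7 0.12, Psmb3 0.019 and Tm7sf2 0.34. The RefSeq-linked length kept 3300 of the 5176 calls. Genes under the filter on low counts were not tested.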
